A study of Mus musculus with 36 samples.

Results

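The genes described here are 34 transcripts by which astrocytes and their reactive state are usually recognised. They were listed by name, with earlier results of these data known, and found by symbol in the table of 55421 genes. Of the 34, 21 are reactivity genes. Of these, Gfap, Vim, Serpina3n, Lcn2, Steap4, S1pr3, Cd44, Osmr, Cp and Aspg belong to the pan-reactive set, Cd14, Cd109, Ptx3, S100a10, Emp1, Tm4sf1, Slc10a6, Clcf1 and Sphk1 to the set tied to ischemia and often named A2, and Nes and Thbs1 to neither. The other 13 are identity genes. Among them Aqp4, Aldh1l1, Slc1a2, Slc1a3, Gja1 and Kcnj10 are the 6 set against the reactivity genes below, and Gjb6, Glul, Sox9, S100b, Fgfr3, Atp1b2 and Slc7a10 are the remaining 7. All 34 were in the table and all 34 were among the 19478 genes that passed the filter on low counts.

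RNA was sequenced from slices of the right hippocampus of 18 mice aged 16 months. Wild-type (WT) mice were C57BL/6. T41B mice, a model of amyloid disease, express human APP bearing both the London and the Swedish mutation (line 41) under a Thy1 cassette that is active mainly in neurons. Mice of both genotypes received vehicle (VEH) or BD10-2, a small molecule that binds TrkB and TrkC, receptors for neurotrophins, given by oral gavage for 3 months, beginning at 13 months. A slice then received theta-burst stimulation (TBS), in 3 trains of 10 bursts with 4 stimuli per burst at 100 Hz, or a sham procedure of the same length, and was frozen at once. The 8 groups were sham and stimulated slices of 4 WT and 4 T41B mice on vehicle, of 3 WT mice per group on BD10-2, and of 5 T41B mice per group on BD10-2. Both slices were sequenced for 14 of the mice.

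Astrocytes clear glutamate and potassium from the space around synapses, recycle glutamate as glutamine, and line blood vessels with end feet that carry water channels. After injury, near amyloid plaques or under inflammatory cytokines they enlarge, fill with intermediate filaments and secrete proteins of the acute-phase and matrix type, a state called reactive. Cytokines of the interleukin 6 family are known drivers of this state. They act through receptor chains such as Il6st and, for oncostatin M, Osmr, and through the factor Stat3. Several of the reactivity genes are not made by astrocytes alone: Cd14 and Cd44 are also made by microglia and other immune cells, Tm4sf1 and Emp1 by blood vessel cells, and Vim, Lcn2, Ptx3, Osmr and Thbs1 by several cell types. In bulk slices, a change in the number of cells of a type and a change in RNA per cell cannot be told apart.

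The 36 libraries held 11597555 to 28125842 estimated counts, with a median of 18082415. Levels are given in CPM, the count of a gene scaled to a common library size, on library sizes adjusted by the TMM method. The genotype labels were compared with Thy1, the gene whose cassette drives the transgene: it lay between 255 and 400 CPM in WT and between 880 and 2410 CPM in T41B libraries. In 4 cases, a mouse and stimulation had 2 libraries with equal labels, which differed by more than sampling noise and were added. In the pair from a stimulated slice of a BD10-2-treated T41B mouse, the library with the lowest Thy1 of all T41B libraries held 1210 CPM of Gfap and 9.65 CPM of Ptx3, and the other library held 2380 and 71.7 CPM. Over all genes this pair differed less (chi-square per degree of freedom 12.5) than libraries of different mice in its group (15.7 to 69.4). The pair from a sham slice of a BD10-2-treated WT mouse differed more (28.9) than libraries of different mice in that group (8.24 to 26.6). Choroid plexus markers summed to over 100 CPM in 6 samples, all on vehicle, namely stimulated slices of 2 WT mice (1220 and 999.6 CPM) and both slices of 2 T41B mice (115.4 to 530.6 CPM). These WT mice made up a batch and these T41B mice another, and no batch id held both treatments.

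Identity genes were the more abundant transcripts. Per kilobase of annotated exon, in sham slices of vehicle-treated WT mice, the mean level was 422 CPM for Slc1a2, the glutamate transporter GLT-1, and 407 CPM for Glul, glutamine synthetase. Atp1b2, a subunit of the sodium pump, followed at 86.5 CPM per kilobase, and Gfap, the astrocyte filament protein, at 85 CPM per kilobase. The glutamate transporter gene Slc1a3 stood at 53.8 CPM per kilobase and the calcium-binding protein gene S100b at 46.2 CPM per kilobase. Except for Gfap, Serpina3n (14 CPM per kilobase) and Vim (8.11), no reactivity gene exceeded 5.09 CPM per kilobase there, the value of S100a10. The lowest were Lcn2 at 0.115 and Steap4 at 0.0486 CPM per kilobase, and Slc10a6 had 0 counts in all 4 of these samples. All 13 identity genes were present in every sample. The neutrophil markers S100a8, S100a9, Ly6g and Retnlg summed to at most 0.341 CPM in any sample.

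Promoter windows are shown for the genes with the largest mean log2 fold changes among those that responded in all 4 comparisons of a kind and had an entry in the RefSeq promoter table (build GRCm38.p6), which held 26 of the 34 genes. Each window is the 250 bases before the RefSeq start, written 5′ to 3′ on the gene's strand, and capitals mark a match to a searched motif. The first 3 windows belong to genes that rose after stimulation in all 4 combinations of genotype and treatment: Ptx3 (chr3:66219637-66219886, plus strand), a secreted pattern-recognition protein of the pentraxin family, Steap4 (chr5:7960222-7960471, plus strand), a metalloreductase, and Slc10a6 (chr5:103629404-103629653, minus strand), a transporter of sulfated steroids. Slc10a6 ranked above Thbs1 and Cd14, which had no entry, through a fitted value over a group with no counts: its mean of 4.11 is 3.36 with that value at its bound, against 3.46 and 3.365.
Ptx3: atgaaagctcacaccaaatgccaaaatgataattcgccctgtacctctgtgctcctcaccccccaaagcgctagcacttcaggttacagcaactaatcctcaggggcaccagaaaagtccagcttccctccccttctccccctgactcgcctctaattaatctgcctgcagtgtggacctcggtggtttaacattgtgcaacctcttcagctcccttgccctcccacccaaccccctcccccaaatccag
Steap4: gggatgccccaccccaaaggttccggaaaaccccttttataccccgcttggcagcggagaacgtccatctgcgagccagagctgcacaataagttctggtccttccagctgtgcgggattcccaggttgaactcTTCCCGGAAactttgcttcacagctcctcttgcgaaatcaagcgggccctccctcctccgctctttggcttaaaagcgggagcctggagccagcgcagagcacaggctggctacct
Slc10a6: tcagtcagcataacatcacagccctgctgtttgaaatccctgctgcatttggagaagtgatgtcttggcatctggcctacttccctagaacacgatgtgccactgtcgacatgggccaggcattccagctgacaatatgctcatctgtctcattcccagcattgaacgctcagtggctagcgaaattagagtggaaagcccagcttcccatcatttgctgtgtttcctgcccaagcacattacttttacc
The other 3 belong to genes that were higher in T41B mice in all 4 combinations of treatment and stimulation, but did not rise in all 4 stimulation comparisons: Gfap (chr11:102897201-102897450, minus strand), Aspg (chr12:112106433-112106682, plus strand), an asparaginase, and Serpina3n (chr12:104406458-104406707, plus strand), a secreted serine protease inhibitor. The Gfap window lies within the span of the longest annotated Gfap transcript.
Gfap: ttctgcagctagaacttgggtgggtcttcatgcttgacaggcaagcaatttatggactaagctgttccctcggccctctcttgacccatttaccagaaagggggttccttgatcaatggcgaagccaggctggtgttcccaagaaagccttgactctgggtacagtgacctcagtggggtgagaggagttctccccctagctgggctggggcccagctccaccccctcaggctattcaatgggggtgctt
Aspg: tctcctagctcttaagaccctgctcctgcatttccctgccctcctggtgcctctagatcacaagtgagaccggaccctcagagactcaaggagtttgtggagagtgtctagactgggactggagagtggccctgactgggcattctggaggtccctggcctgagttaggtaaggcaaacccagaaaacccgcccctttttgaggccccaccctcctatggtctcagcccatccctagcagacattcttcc
Serpina3n: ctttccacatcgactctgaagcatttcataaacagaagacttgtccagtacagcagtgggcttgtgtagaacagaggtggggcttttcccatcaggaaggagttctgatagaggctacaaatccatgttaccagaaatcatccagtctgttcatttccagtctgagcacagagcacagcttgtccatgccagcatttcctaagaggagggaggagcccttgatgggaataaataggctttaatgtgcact
Motifs were searched on both strands. The STAT motif TTCNNNGAA, which reads alike on both strands, was found in the window of Steap4 alone among these 6, from 116 to 108 bases before the start, as against 7.02% of the 32851 RefSeq promoter windows of this length. The windows of Emp1, Slc1a3 and Sphk1 also held it. The AP-1 motif TGANTCA (6.75% of all windows) was found for Cp, Emp1, Gja1 and Sphk1. The letters TTGCNNCAA (1.74%), searched under the name C/EBP, were found for Emp1 and Fgfr3. These letters need not mark a C/EBP site, and C/EBP sites spelled otherwise were not searched. The NF-kappaB motif GGANTTTCC (1.07%) and the CRE motif TGACGTCA (1.55%) were found in none of the 26. A match describes these letters only.

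Stimulated slices were first compared with sham slices, within each genotype and treatment. Stimulation raised most reactivity genes and fewer identity genes. In vehicle-treated WT mice, 18 of the 21 reactivity genes and 3 of the 13 identity genes rose. Called at an edgeR adjusted p under 0.05 (quasi-likelihood F test, Benjamini-Hochberg), this made 21 of 34 genes higher and 0 lower, against 8.21% of all genes tested called higher and 4.1% called lower. In vehicle-treated T41B mice 17 reactivity and 4 identity genes rose, 21 in all, where 11.7% of all genes rose and 9.83% fell. In BD10-2-treated WT mice 16 reactivity genes and 0 identity genes rose, where 6.29% of all genes rose and 2.58% fell. In BD10-2-treated T41B mice 18 reactivity and 4 identity genes rose, 22 in all, where 13.3% of all genes rose and 9.52% fell. In these 4 comparisons, in the order given, the median log2 fold change was 1.8, 2.19, 1.58 and 2.00 over the reactivity genes, 0.18, 0.18, 0.11 and 0.17 over the identity genes, and -0.01, -0.05, -0.01 and -0.04 over all genes tested. Without the 6 samples with choroid plexus markers, 25 of 34 genes were called in vehicle-treated WT mice and 15 in vehicle-treated T41B mice, which then held 2 mice, against 7.67% and 4.45% of all genes called higher in these fits. Without the 2 mice of batch H, both T41B on BD10-2, 17 were called in BD10-2-treated T41B mice (8.67% of all genes higher, 3.48% lower), with Vim, Serpina3n, Aqp4, Sox9 and Slc1a3 no longer called.

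**Figure D1:**
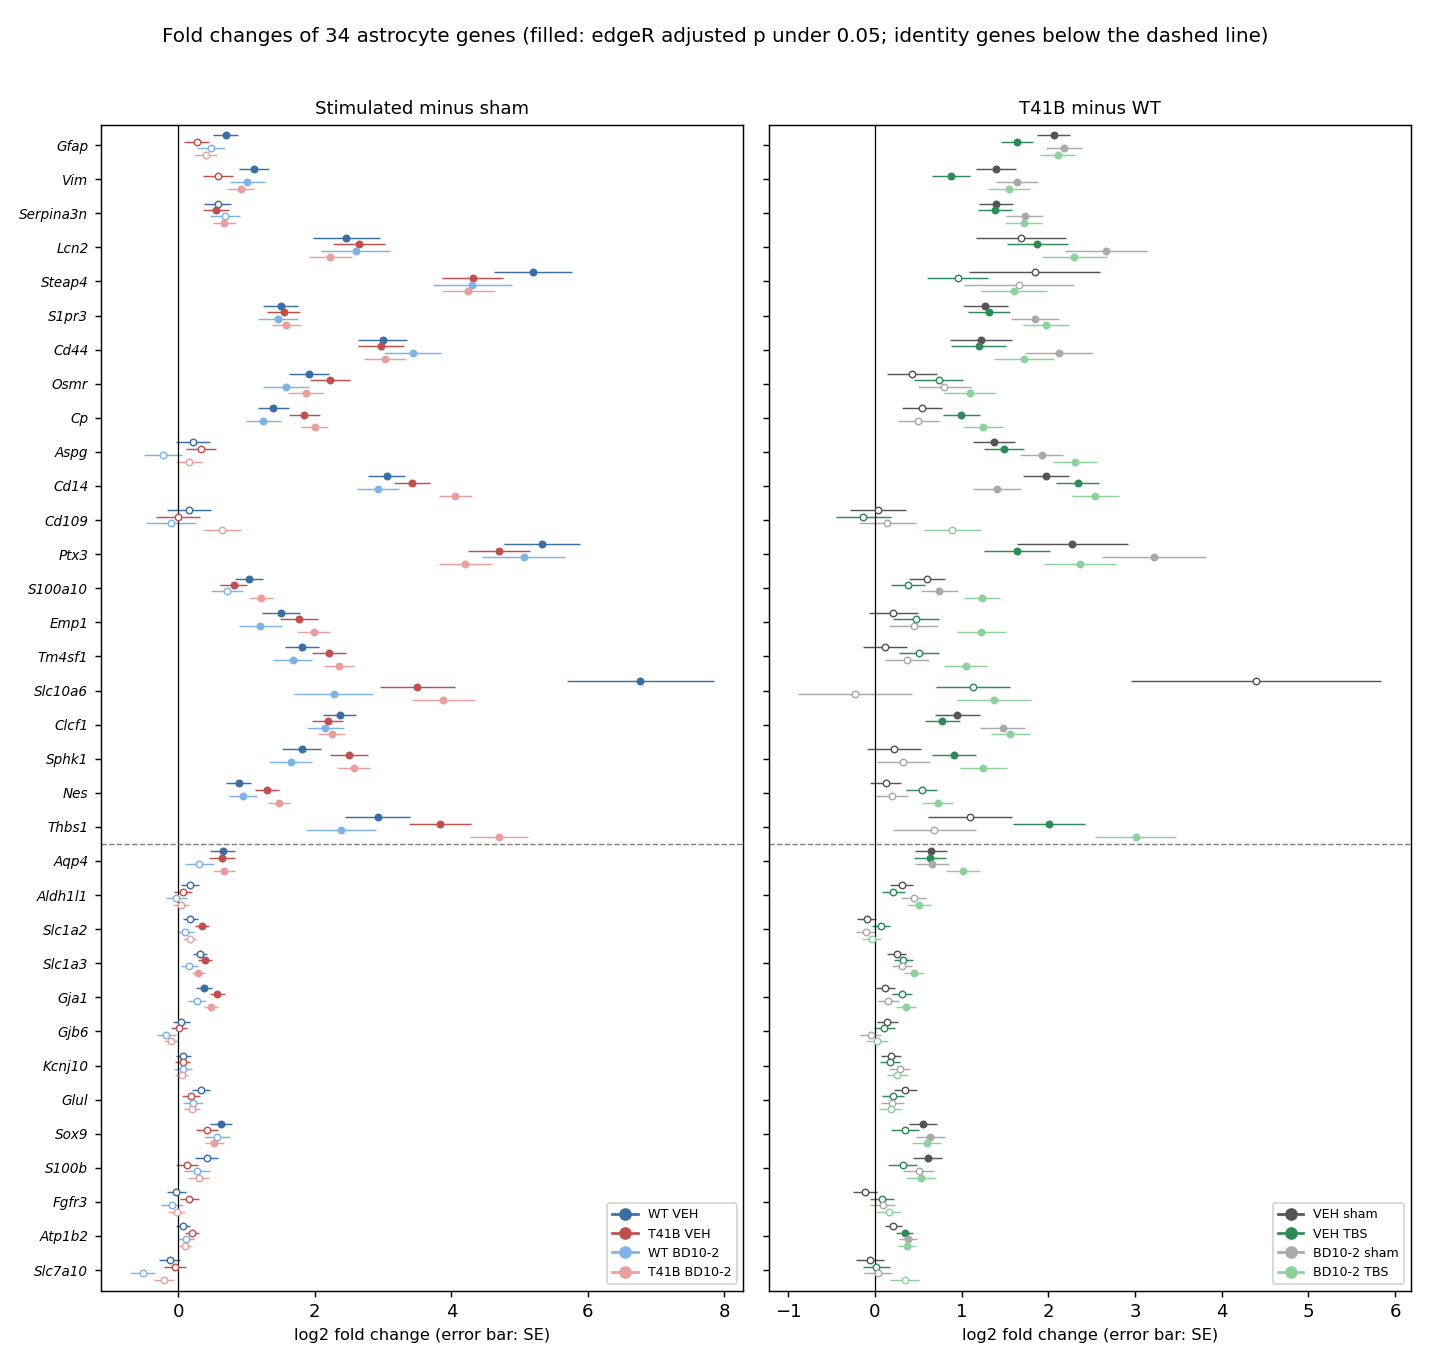
Log2 fold change (x axis) of the 34 genes (y axis) for stimulated minus sham slices (left) and T41B minus WT slices (right), with bars for the standard error and filled points for an edgeR adjusted p under 0.05. Most reactivity genes lie to the right of 0 after stimulation, the points that are not filled are those of Gfap, Serpina3n, Aspg, Cd109, Vim and S100a10 in 1 or more comparisons, and among identity genes (below the dashed line) Aqp4 reaches 0.67 after stimulation and 1.02 by genotype and Sox9 reaches 0.63 after stimulation. The Slc10a6 values against vehicle-treated WT sham slices, where it had no counts, depend on the fit's prior count.

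Among pan-reactive genes the responses to stimulation spanned from strong to none. Steap4 stood at 0, 0.0629, 0.119 and 0.432 CPM in sham slices of vehicle-treated WT mice and at 2.95, 4.02, 5.93 and 8.69 CPM in stimulated slices. In vehicle-treated T41B mice it was 0.438, 0.494, 0.531 and 0.630 CPM in sham and 8.20, 8.68, 10.0 and 15.4 CPM in stimulated slices. All stimulated samples exceeded all sham samples of their group, and the log2 fold changes were 5.20, 4.31, 4.31 and 4.25 in the order vehicle WT, vehicle T41B, BD10-2 WT and BD10-2 T41B (edgeR adjusted p from 1.17e-09 to 5.66e-06), an order kept for stimulation below. Cd44, a receptor for hyaluronan, rose from 2.85, 3.39, 6.70 and 11.8 CPM to 43.1, 43.4, 48.0 and 63.3 CPM in vehicle-treated WT mice and from 12.4, 13.8, 13.9 and 17.9 to 81.8, 97.5, 137 and 138 CPM in vehicle-treated T41B mice. No sham sample reached the lowest stimulated sample, and the log2 fold changes were 2.99, 2.97, 3.43 and 3.03 (edgeR adjusted p from 6.11e-09 to 1.2e-06). Lcn2, lipocalin 2, an iron-sequestering secreted protein, was 0.115, 0.178, 0.288 and 0.629 CPM in sham and 0.492, 1.98, 1.99 and 2.12 CPM in stimulated slices of vehicle-treated WT mice, where 1 stimulated sample lay below the highest sham sample. Its log2 fold changes were 2.46, 2.65, 2.60 and 2.23 (edgeR adjusted p from 2.11e-06 to 0.00078).

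Osmr, the receptor chain for oncostatin M, was 31.6, 39.5, 41.6 and 65.4 CPM in sham and 115, 180.3, 181 and 195 CPM in stimulated slices of vehicle-treated WT mice. The groups did not overlap, and the log2 fold changes were 1.91, 2.22, 1.58 and 1.87 (edgeR adjusted p from 1.62e-06 to 0.00196). S1pr3, a receptor for sphingosine 1-phosphate, rose by 1.5, 1.54, 1.45 and 1.58 on the log2 scale (edgeR adjusted p from 1.49e-06 to 0.0012), and Cp, the copper-binding ferroxidase ceruloplasmin, by 1.39, 1.85, 1.25 and 1.99 (edgeR adjusted p from 6.58e-09 to 0.00155). In vehicle-treated WT mice S1pr3 ranged from 7.10 to 9.68 CPM in sham and from 19 to 27.9 CPM in stimulated slices, and Cp from 8.66 to 12.4 and from 15.7 to 32.4 CPM. Neither gene's groups overlapped.

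The classic markers moved less. Gfap was 305, 332, 396 and 400.4 CPM in sham and 520.5, 522, 586 and 689 CPM in stimulated slices of vehicle-treated WT mice, without overlap (log2 fold change 0.69 ± 0.18 SE, edgeR adjusted p = 0.0113). In T41B mice on vehicle it was 1145, 1350.3, 1500.5 and 1991 CPM in sham and 1480.0, 1725, 1868 and 2139 CPM in stimulated slices, and the groups overlapped (log2 fold change 0.27 ± 0.18 SE, edgeR adjusted p = 0.315). Under BD10-2 the log2 fold changes of Gfap were 0.48 ± 0.21 SE in WT (edgeR adjusted p = 0.17) and 0.40 ± 0.16 SE in T41B mice (edgeR adjusted p = 0.0771). With the mouse as a block the last was 0.38 and passed the threshold, and the call in vehicle-treated WT mice was lost without either of 2 of its mice. Vim, the filament protein vimentin, had log2 fold changes of 1.108, 0.59, 1.01 and 0.91 (edgeR adjusted p 0.000924, 0.054, 0.011 and 0.000833), and was called in 3 of the 4. In the remaining comparison, vehicle-treated T41B mice, it was 0.57 with the mouse as a block and was called. Serpina3n had log2 fold changes of 0.57, 0.56, 0.68 and 0.67 (edgeR adjusted p 0.0525, 0.0345, 0.0522 and 0.00397), called in T41B mice under both treatments. In vehicle-treated T41B mice this call was lost in 5 of 29 alternatives, with values from 0.27 to 0.77, and in BD10-2-treated T41B mice it was lost without the 2 mice of batch H (0.33, edgeR adjusted p = 0.309). In WT mice Serpina3n was called in 15 of 29 alternatives under vehicle and in 12 of 29 under BD10-2, among them the mouse as a random effect in limma-voom. Aspg showed no call in any of the 4, with log2 fold changes of 0.22, 0.33, -0.23 and 0.15: it was 1.8, 1.91, 2.95 and 2.96 CPM in sham and 2.46, 2.77, 2.86 and 3.10 CPM in stimulated slices of vehicle-treated WT mice.

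Of the 9 genes of the A2 set, 7 rose in all 4 comparisons, as did 4.46% of all genes tested. Ptx3 was 0.356, 0.404, 0.865 and 1.38 CPM in sham and 22.5, 28.9, 30.2 and 38.2 CPM in stimulated slices of vehicle-treated WT mice. In BD10-2-treated T41B mice it was 3.38, 3.92, 4.13, 8.78 and 11.4 CPM in sham and 44.1, 109, 114, 149 and 166 CPM in stimulated slices. Its groups did not overlap in any of the 4 comparisons, with log2 fold changes of 5.33, 4.70, 5.06 and 4.20 (edgeR adjusted p from 1.15e-09 to 9.46e-07). Cd14, the co-receptor for bacterial lipopolysaccharide, was 6.56, 7.68, 7.92 and 8.24 CPM in sham and 55.3, 56.1, 65.7 and 76.6 CPM in stimulated slices of vehicle-treated WT mice. In vehicle-treated T41B mice it was 19.1, 29.3, 30.3 and 40.5 and 238, 288, 325 and 430.1 CPM. No samples overlapped, and the log2 fold changes were 3.06, 3.42, 2.92 and 4.06 (edgeR adjusted p from 6.74e-13 to 1.05e-07). Clcf1, a cytokine of the interleukin 6 family, was 0.937, 1.13, 1.27 and 2.07 CPM in sham and 4.74, 6.21, 8.48 and 8.56 CPM in stimulated slices of vehicle-treated WT mice and rose by 2.15 to 2.36 on the log2 scale (edgeR adjusted p from 4.95e-10 to 2.19e-06), again without overlap.

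Sphk1, the kinase that makes sphingosine 1-phosphate, rose by 1.8, 2.50, 1.65 and 2.57 on the log2 scale (edgeR adjusted p from 2.64e-09 to 0.000721). The membrane proteins Tm4sf1 and Emp1 rose by 1.81, 2.21, 1.67 and 2.35 and by 1.5, 1.77, 1.20 and 1.98 (edgeR adjusted p from 1.55e-09 to 0.000129 and from 2.78e-07 to 0.0131). Their stimulated samples all lay above their sham samples in vehicle-treated WT mice, with sham ranges of 0.648 to 3.21 CPM for Sphk1, 7.51 to 10.2 CPM for Tm4sf1 and 8.0 to 17.8 CPM for Emp1. The stimulated ranges there were 5.27 to 7.92, 14.3 to 40.5 and 26.6 to 43.3 CPM. Slc10a6 had 0 counts over the 4 sham samples of vehicle-treated WT mice and 51 counts over the 4 stimulated ones, which was at least 13.7-fold higher when the sham group was set to 3 counts in all. In the other 3 comparisons its log2 fold changes were 3.5, 2.28 and 3.88 (edgeR adjusted p from 3.22e-07 to 0.0118), and its highest group reached 1.71 to 2.40 CPM. In BD10-2-treated WT mice its value with the mouse as a block was 1.82 and was not called. S100a10, the annexin 2 partner p11, had log2 fold changes of 1.03, 0.81, 0.71 and 1.21 (edgeR adjusted p 0.000739, 0.00317, 0.0508 and 4.04e-06), and in BD10-2-treated WT mice it was called in 11 of 29 alternatives, the mouse as a random effect among them. Cd109, a membrane protein that binds transforming growth factor beta, was called in none, with log2 fold changes of 0.16, -0.004, -0.11 and 0.64.

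Thbs1, the secreted matrix protein thrombospondin 1, known to promote synapse formation, was 3.39, 3.58, 3.97 and 5.91 CPM in sham and 16.0, 32.3, 32.5 and 46.7 CPM in stimulated slices of vehicle-treated WT mice. It was 5.56, 7.58, 8.32, 8.33 and 11.6 CPM in sham and 58.5, 111, 123, 349 and 433 CPM in stimulated slices of BD10-2-treated T41B mice. The stimulated T41B samples were spread widely, the 2 highest being the mice of batch H, yet each exceeded every sham sample, and the log2 fold changes were 2.92, 3.83, 2.38 and 4.70 (edgeR adjusted p from 7.57e-10 to 0.0025). Nes, the filament protein nestin, rose by 0.88, 1.3, 0.95 and 1.47 (edgeR adjusted p from 3.02e-08 to 0.00252), and ranged from 12.5 to 16.7 CPM in sham and from 23 to 31.6 CPM in stimulated slices of vehicle-treated WT mice. Of the 21 reactivity genes, 17 were higher in the stimulated than in the sham slice of all 14 mice with both slices, Serpina3n in 13, Gfap in 12, and Aspg and Cd109 in 8. Of the 13 identity genes Aqp4, Slc1a2, Slc1a3, Gja1 and Sox9 were higher in all 14, and of all genes tested 9.08% were.

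**Figure D2:**
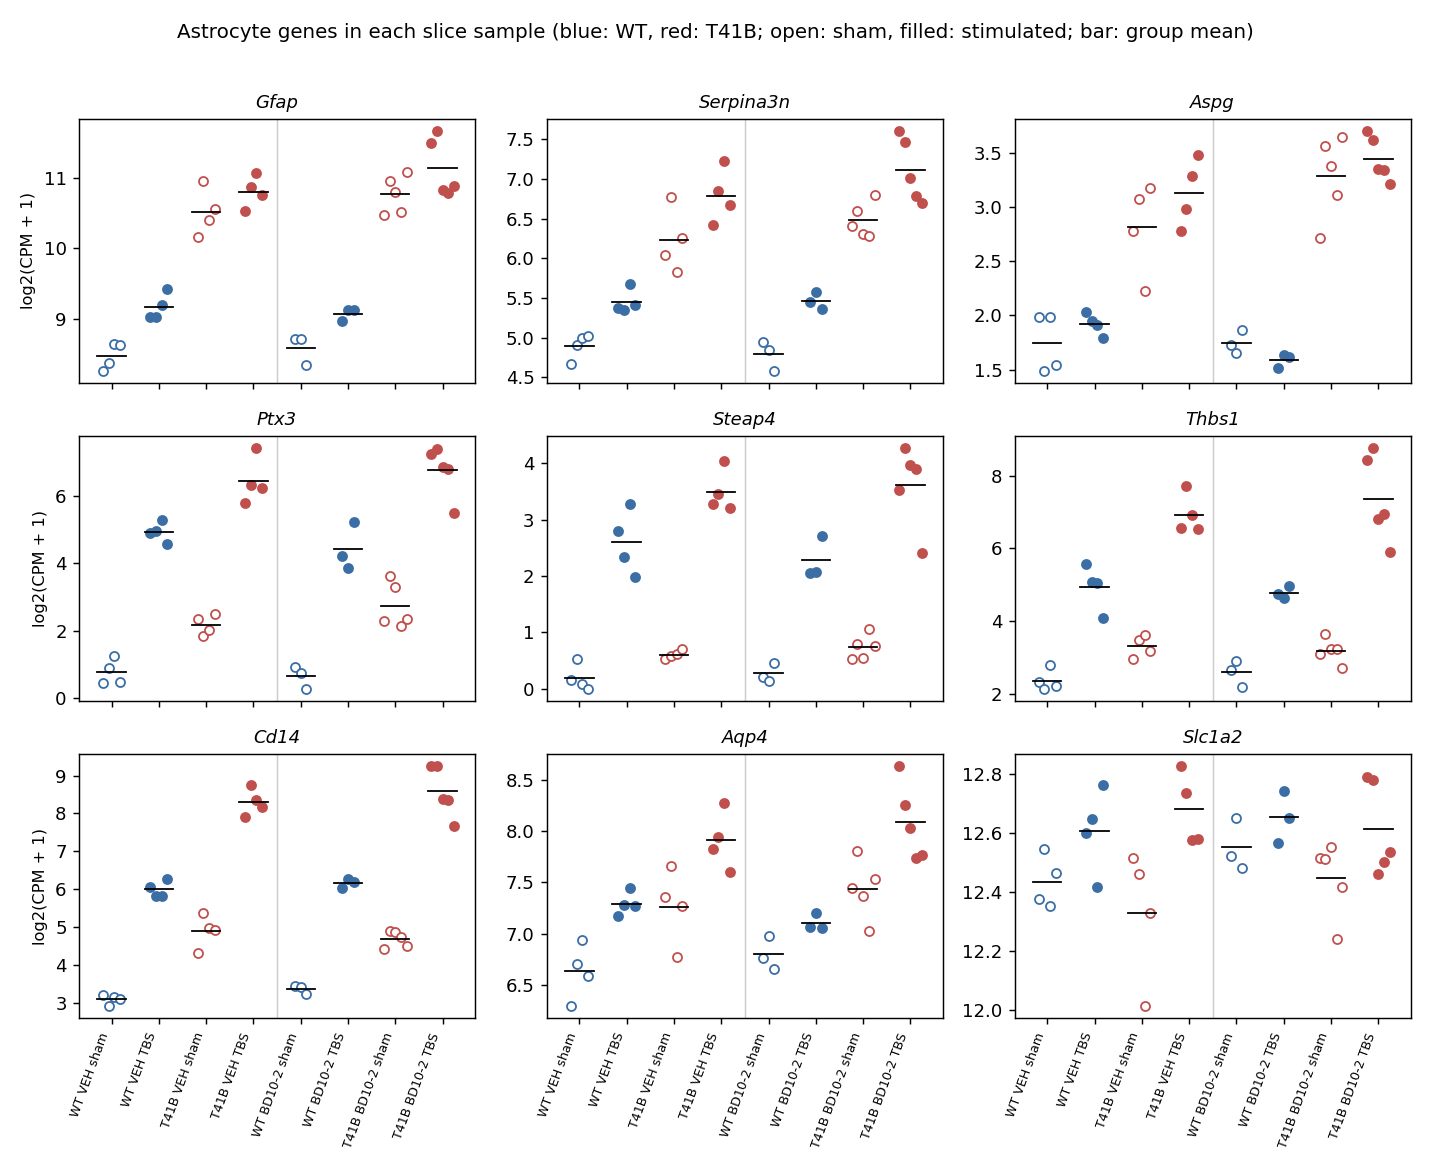
Levels, as log2(CPM + 1), of 9 genes in each of the 32 samples by group (x axis), with blue for WT, red for T41B, open points for sham, filled points for stimulated slices and bars for group means. Ptx3, Steap4, Thbs1 and Cd14 separate filled from open points, whereas Gfap, Serpina3n and Aspg separate red from blue, and Slc1a2 stays within a narrow band.

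Of the 13 identity genes, 5 were called in at least 1 of the 4 stimulation comparisons, all higher, where 16.8% of all genes tested were called higher in at least 1. Aqp4, the water channel of astrocyte end feet, was 77.4, 95.5, 103 and 122 CPM in sham and 143, 153, 154 and 174 CPM in stimulated slices of vehicle-treated WT mice, and its log2 fold changes were 0.65, 0.64, 0.31 and 0.67 (edgeR adjusted p 0.0195, 0.0124, 0.42 and 0.00315), called in 3 of the 4. Gja1, the gap junction protein connexin 43, was 155, 169, 172 and 185 CPM and 211, 214, 226 and 232 CPM, with log2 fold changes of 0.38, 0.57, 0.27 and 0.48 (edgeR adjusted p 0.0257, 0.000409, 0.201 and 0.000595), also called in 3. For both genes stimulated and sham samples of vehicle-treated WT mice did not overlap. In these mice the Aqp4 call was lost without any 1 of 3 mice, at 0.58 to 0.71 over all alternatives. In vehicle-treated T41B mice it was lost without 1 mouse or without the samples with choroid plexus markers, and the value ranged from 0.36 to 0.78. The Gja1 calls under vehicle were lost without any 1 of 3 WT mice and, in T41B mice, without the samples with choroid plexus markers. Sox9, a transcription factor of the astrocyte lineage, had log2 fold changes of 0.63, 0.41, 0.57 and 0.53 (edgeR adjusted p 0.00877, 0.0617, 0.0515 and 0.00708), and in BD10-2-treated WT mice it was called in 14 of 29 alternatives, the mouse as a random effect among them. The glutamate transporters moved least among the called genes: Slc1a3 had log2 fold changes of 0.31, 0.39, 0.16 and 0.29 (edgeR adjusted p 0.0526, 0.00875, 0.495 and 0.0253) and Slc1a2 of 0.18, 0.34, 0.10 and 0.17 (edgeR adjusted p 0.301, 0.0192, 0.687 and 0.21). Both calls in vehicle-treated T41B mice were lost without 1 mouse, without the samples with choroid plexus markers and with only the groups compared in the fit, and the Slc1a3 call in BD10-2-treated T41B mice was lost in 6 of 29 alternatives. In vehicle-treated WT mice Slc1a3 ranged from 416 to 501 CPM in sham and from 526 to 650.3 CPM in stimulated slices, and Slc1a2 from 5236 to 5979 and from 5471 to 6956 CPM. The other 8 identity genes were called in none of the 4. Among them Aldh1l1, a folate enzyme used as a pan-astrocyte marker, had log2 fold changes of 0.17, 0.07, -0.03 and 0.03, and Kcnj10, the potassium channel Kir4.1, of 0.07, 0.06, 0.07 and 0.05. With the mouse as a block the counts of genes called were 24, 24, 16 and 24, where 11.6%, 14.7%, 4.69% and 13.5% of all genes were called higher and 8.49%, 14.8%, 1.91% and 10.4% lower. The gains were Slc1a3 (0.31), Glul (0.31) and S100b (0.39) in vehicle-treated WT mice, Sox9 (0.43), Vim (0.57) and Atp1b2 (0.21) in vehicle-treated T41B mice, and Slc1a2 (0.21) and Gfap (0.38) in BD10-2-treated T41B mice. In BD10-2-treated WT mice Slc7a10, a transporter of small amino acids, was called lower (-0.72) and Slc10a6 was no longer called. There only the 2 WT mice of batch I had both slices, so the blocked values rest on them. The sham sample of 1 of them added libraries with 12.1 and 25.1 CPM of Slc7a10. The fit without the block did not call Slc7a10.

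Markers of other cell types moved with stimulation too. Of all genes tested 8.21%, 11.7%, 6.29% and 13.3% rose and 4.1%, 9.83%, 2.58% and 9.52% fell. The 10 microglia markers summed to a mean of 318 CPM in sham and 187 CPM in stimulated slices of vehicle-treated WT mice, with ranges of 281 to 367 and 160 to 234 CPM. In vehicle-treated T41B mice the ranges were 609 to 1140 CPM in sham and 374 to 543 CPM in stimulated slices. In each of the 4 comparisons 7 of the 10 fell and 0 rose, and no marker was at 0 in any sample. Of the 7 endothelial markers 4, 2, 3 and 4 fell and 0, 1, 0 and 1 rose, and of the 6 neuron markers 1, 0, 2 and 2 fell. Of the 7 mural and fibroblast markers 2, 0, 1 and 2 fell. Of the 5 ependymal markers 4 fell in vehicle-treated T41B mice and 0 in the others, with median log2 fold changes of -0.83, -1.46, -0.74 and -0.47, and of the 5 oligodendrocyte markers 1 fell, in vehicle-treated T41B mice. Choroid plexus markers rose, 9 of 9, in vehicle-treated WT mice, where they ranged from 15.7 to 20.6 CPM in sham and from 14.3 to 1220 CPM in stimulated slices. In each of the other 3 comparisons 1 of 9 rose (11.1%), a share below that of all genes in T41B mice under both treatments. The part of these cells in the values of the reactivity genes was not tested.

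Related genes outside the 34 were read from lists of the same pathways, to be set beside the 8.21%, 11.7%, 6.29% and 13.3% of all genes that rose and the 4.1%, 9.83%, 2.58% and 9.52% that fell. Of 6 further pan-reactive and A2 genes, 4, 4, 5 and 5 rose after stimulation and 0, 0, 1 and 0 fell. The chemokine Cxcl10, the protease inhibitor Timp1, the prostaglandin synthase Ptgs2 and B3gnt5 rose in all 4, Cxcl10 by 4.39, 3.98, 4.27 and 4.28 and Timp1 by 3.20, 3.86, 3.55 and 3.80 on the log2 scale. Of 11 tested genes of the reactive type evoked by lipopolysaccharide, often named A1, 6, 4, 5 and 6 rose and 0, 1, 0 and 1 fell, with Gbp2, Iigp1, Srgn and Psmb8 rising in all 4. Of 22 ligands, receptors and partners of the reactivity genes, 10, 10, 10 and 12 rose and 2, 3, 1 and 1 fell. The cytokines Il1b, Tnf, Lif and Il6 rose in all 4, Il6 by 3.72, 4.26, 3.55 and 4.30 and Lif by 4.27, 4.22, 4.00 and 3.54. Of 30 further astrocyte identity genes 5, 3, 0 and 6 rose (16.7%, 10%, 0% and 20%) and 0 fell, a share below that of all genes in vehicle-treated T41B and in BD10-2-treated WT mice, with F3, tissue factor, and Bmpr1b each called in 3 of the 4.

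T41B slices were next compared with WT slices, within each treatment and stimulation. Gfap, Vim, Serpina3n, Aspg and Cd14 were among the genes higher in T41B mice in all 4 comparisons, and none of the 34 was called lower. Among sham slices of vehicle-treated mice 9 reactivity and 3 identity genes were higher, 12 of 34, against 5% of all genes tested called higher and 1.24% called lower. Among stimulated slices of vehicle-treated mice 13 and 2 were higher, 15 in all (4.74% of all genes higher, 1.05% lower). Among sham slices of BD10-2-treated mice 11 and 3 were higher, 14 in all (4.31% higher, 1.14% lower). Among stimulated slices of BD10-2-treated mice 20 and 7 were higher, 27 in all (8.19% higher, 2.36% lower). The median log2 fold change was 1.22, 1.0, 1.41 and 1.56 over the reactivity genes, 0.21, 0.21, 0.28 and 0.36 over the identity genes, and 0.00, -0.03, 0.01 and -0.02 over all genes tested. The 10 genes called higher in all 4 were Gfap, Vim, Serpina3n, S1pr3, Cd44, Aspg, Cd14, Ptx3, Clcf1 and Aqp4. With the batch id as a covariate 5 of these were called in all 4, namely Gfap, Serpina3n, S1pr3, Aspg and Cd14, and the same 5 without either of 2 single mice. Without the samples with choroid plexus markers 4 were, and with the mouse as a random effect in limma-voom 6. With the batch id as a covariate 6, 8, 10 and 22 genes were called, all higher, where 1.7%, 3.08%, 3.44% and 6.89% of all genes were called higher. Without the samples with choroid plexus markers 6 were called among sham and 5 among stimulated slices of vehicle-treated mice (1.27% and 1.13% of all genes higher). Leaving out either of the 2 WT mice or 1 of the 2 T41B mice with these markers left 6 called in sham vehicle slices, and that T41B mouse left 9 in stimulated ones. Leaving out 1 WT mouse left 16 in stimulated BD10-2 slices. Leaving out the 2 mice of batch H also left 16 there (4.61% of all genes higher), and the 11 genes that lost the call were Osmr, Emp1, Tm4sf1, Slc10a6, Nes, Aldh1l1, Slc1a3, Gja1, Sox9, S100b and Atp1b2.

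Gfap separated the genotypes in every comparison. Under vehicle, sham slices held 305, 332, 396 and 400.4 CPM in WT and 1145, 1350.3, 1500.5 and 1991 CPM in T41B mice. Under BD10-2 they held 325, 418 and 419 CPM in WT and 1422, 1469, 1775, 1979 and 2161 CPM in T41B mice. Every T41B sample exceeded every WT sample, and the log2 fold changes, in the order vehicle sham, vehicle stimulated, BD10-2 sham and BD10-2 stimulated, were 2.06, 1.64, 2.18 and 2.11 (edgeR adjusted p from 4.4e-08 to 1.2e-06). Serpina3n was 24.4, 28.9, 30.8 and 31.6 CPM in WT and 55.8, 65.0, 75.7 and 108 CPM in T41B sham slices under vehicle, again without overlap, with log2 fold changes of 1.40, 1.38, 1.73 and 1.72 (edgeR adjusted p from 2.12e-06 to 2.5e-05). Aspg, which was not called after stimulation, was 1.8, 1.91, 2.95 and 2.96 CPM in WT and 3.67, 5.88, 7.45 and 8.03 CPM in T41B sham slices under vehicle. Its samples did not overlap in any of the 4, and its log2 fold changes were 1.37, 1.49, 1.93 and 2.31 (edgeR adjusted p from 3.71e-07 to 0.000317). Gfap, Serpina3n and Aspg kept their calls in all 4 under each of the 28 alternatives run. Vim had log2 fold changes of 1.40, 0.87, 1.64 and 1.55 (edgeR adjusted p from 3.77e-05 to 0.0127). In stimulated vehicle slices its call was lost with the batch covariate, without the samples with choroid plexus markers and without either of 2 mice.

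Cd14 and Ptx3 were high in T41B mice on top of their response to stimulation. Cd14 was 55.3, 56.1, 65.7 and 76.6 CPM in WT and 238, 288, 325 and 430.1 CPM in T41B stimulated slices under vehicle, and its log2 fold changes by genotype were 1.97, 2.34, 1.41 and 2.54 (edgeR adjusted p from 2.47e-07 to 0.00133). Ptx3 was 22.5, 28.9, 30.2 and 38.2 CPM in WT and 54.2, 74.0, 77.9 and 168 CPM in T41B stimulated slices under vehicle, with log2 fold changes of 2.27, 1.64, 3.22 and 2.37 (edgeR adjusted p from 0.000202 to 0.0289). For neither gene did the genotypes overlap in any of the 4 comparisons. S1pr3 had log2 fold changes of 1.27, 1.32, 1.84 and 1.97 (edgeR adjusted p from 6.73e-06 to 0.00215), Cd44 of 1.22, 1.20, 2.12 and 1.72 (edgeR adjusted p from 0.000642 to 0.0377) and Clcf1 of 0.95, 0.78, 1.47 and 1.56 (edgeR adjusted p from 1.53e-05 to 0.0237). Lcn2 had log2 fold changes of 1.69, 1.87, 2.67 and 2.30 (edgeR adjusted p 0.0506, 0.000777, 0.000458 and 7.72e-05), called in 3 of the 4. In vehicle sham slices the call was lost in 11 of 28 alternatives for Cd44 (0.80 to 1.74), 9 for Ptx3 (2.03 to 2.77) and 8 for Clcf1 (0.59 to 1.23), among them the batch covariate, the mouse as a random effect in limma-voom and the leaving out of single mice. In vehicle stimulated slices it was lost in 6, 4 and 5, and Ptx3 in BD10-2 sham slices lost it with the random effect. Of the genes that rose after stimulation, Steap4, Osmr, Emp1, Tm4sf1, Slc10a6 and Nes were called by genotype in 1 of the 4 comparisons each, and Cp, S100a10, Sphk1 and Thbs1 in 2.

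Among identity genes Aqp4 differed most by genotype. It was 77.4, 95.5, 103 and 122 CPM in WT and 108, 153, 163 and 201 CPM in T41B sham slices under vehicle, where the groups overlapped, and 100, 107 and 125 and 129, 164, 173, 184 and 223 CPM under BD10-2, where they did not. Its log2 fold changes were 0.65, 0.64, 0.66 and 1.02 (edgeR adjusted p from 0.00053 to 0.0418). The call was lost in 8, 8 and 12 of 28 alternatives in the first 3, among them the batch covariate, and in BD10-2 sham slices also with the mouse as a random effect and without the mice of batch H. Sox9 (0.56, 0.35, 0.64 and 0.60) and Atp1b2 (0.21, 0.34, 0.39 and 0.37) were called in 3 of the 4, S100b in 2, and Aldh1l1, Slc1a3 and Gja1 in 1. With the batch covariate Sox9 lost its calls in both sham comparisons, and Atp1b2, S100b, Aldh1l1 and Gja1 lost all of theirs. In vehicle sham slices the calls of Sox9 (0.33 to 0.71) and S100b (0.33 to 0.74) were each lost in 8 of 28 alternatives, among them without the samples with choroid plexus markers and without any 1 of 5 mice. In BD10-2 stimulated slices the S100b call was lost in 14 of 28 and the Gja1 call in 11. Slc1a2 had log2 fold changes of -0.09, 0.07, -0.10 and -0.04 and Kcnj10 of 0.19, 0.17, 0.28 and 0.26, and neither was called. In sham vehicle slices Slc1a2 was 5236 to 5979 CPM in WT and 4129.9 to 5857 CPM in T41B mice.

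Within single batches both genotypes were present in 7 combinations of batch and stimulation, mostly with 1 mouse of each genotype. These come from 4 batches, and 3 of the batches enter with both sham and stimulated slices of largely the same mice, so the 7 are not independent. Gfap was higher in T41B in 7 of 7, by 1.32 to 2.73 on the log2(CPM + 1) scale, Serpina3n in 7 of 7 by 0.74 to 2.22, Aspg in 7 of 7 by 0.80 to 1.78 and Cd14 in 7 of 7 by 1.17 to 2.21. Clcf1 was higher in 6 of 7 and Aqp4 in 7 of 7, by 0.15 to 0.88. The 10 microglia markers were also higher in T41B mice, 9, 6, 8 and 10 of 10 called in the 4 comparisons, and their part in the genotype differences was not tested. Of the 6 neuron markers 1, 2, 2 and 0 were lower in T41B mice, with median log2 fold changes of -0.31, -0.34, -0.33 and -0.24. Of all genes tested 1.24%, 1.05%, 1.14% and 2.36% were called lower. The choroid plexus markers had medians of 1.94, -2.52, 0.07 and 0.44, with 1 of 9 higher in vehicle sham and 2 of 9 lower in vehicle stimulated slices, and 1, 0, 1 and 1 of the 5 ependymal markers were higher. Of the 7 endothelial markers 1 was lower in vehicle stimulated slices, and of the 7 mural and fibroblast markers 1 was higher in BD10-2 stimulated slices. The part of these cells was not tested either. Beside the 5%, 4.74%, 4.31% and 8.19% of all genes called higher, of the 11 tested A1 genes 7, 8, 8 and 9 were higher in T41B mice, led over all 4 by Psmb8, Gbp2, H2-D1 and Ggta1. Of the 22 ligands, receptors and partners 10, 12, 12 and 15 were higher and 1, 0, 0 and 0 lower, led by Spp1, osteopontin (3.55, 2.60, 3.36 and 4.01), and the complement genes C1qa, C1qc and C1qb. Of 30 further identity genes 7, 7, 7 and 9 were higher, with Slc14a1, Cst3, Clu and Apoe in all 4. Of the 6 further pan-reactive and A2 genes 2, 5, 3 and 5 were higher, with Cxcl10 and Tgm1 in all 4.

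The genes thus divided by the comparisons that called them. All 4 stimulation comparisons called 15 of the 34 genes higher, all of them reactivity genes, against 4.46% of all genes tested, and all 4 genotype comparisons called 10, against 1.99%. Called higher in all 8 were 5 (S1pr3, Cd44, Cd14, Ptx3 and Clcf1), against 0.76% of all genes tested. Of these 5, S1pr3 and Cd14 alone were called in all 8 with the batch covariate (0.318% of all genes), and the same 2 with the mouse as a random effect in limma-voom, where Vim and Serpina3n were called as well. Cd14 alone was without the samples with choroid plexus markers (0.117% of all genes). Leaving out each mouse in turn gave 13 to 18 genes in all 4 stimulation comparisons, 5 to 11 in all 4 genotype comparisons and 2 to 8 in all 8. With all mice, Gfap, Vim, Serpina3n, Aspg and Aqp4 were called in all 4 genotype but not all 4 stimulation comparisons, and Aspg in 0 of the latter. Cd109, Gjb6, Kcnj10, Glul, Fgfr3 and Slc7a10 were called in none of these 8. The 2 kinds of comparison share samples, so these counts are listed side by side only.

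Sham T41B slices were also set against stimulated WT slices, a comparison chosen after the data were seen, to place the genotype and stimulation levels on 1 scale. Under vehicle 3 of the 34 genes were higher in sham T41B slices, namely Gfap (1.37 ± 0.19 SE), Serpina3n (0.82 ± 0.19 SE) and Aspg (1.16 ± 0.23 SE) on the log2 scale (edgeR adjusted p 4.89e-06, 0.00479 and 0.001), and 13 were lower, against 4.16% and 4.89% of all genes tested. Under BD10-2 the same 3 with Aldh1l1 and Slc7a10 were higher and 11 were lower (5.25% and 6.3% of all genes). Without the mice of batch H Aldh1l1 and Slc7a10 were not called. The largest differences the other way were in Steap4 (-3.36 and -2.64), Ptx3 (-3.06 and -1.84) and Slc10a6 (-2.37 and -2.50). Under vehicle, Steap4 was 0.438, 0.494, 0.531 and 0.630 CPM in sham T41B and 2.95, 4.02, 5.93 and 8.69 CPM in stimulated WT slices, and Gfap was 1145, 1350.3, 1500.5 and 1991 and 520.5, 522, 586 and 689 CPM. Without the samples with choroid plexus markers 2 genes were called higher and 7 lower under vehicle (1.87% and 1.54% of all genes), and Serpina3n was not among those higher.

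**Figure D3:**
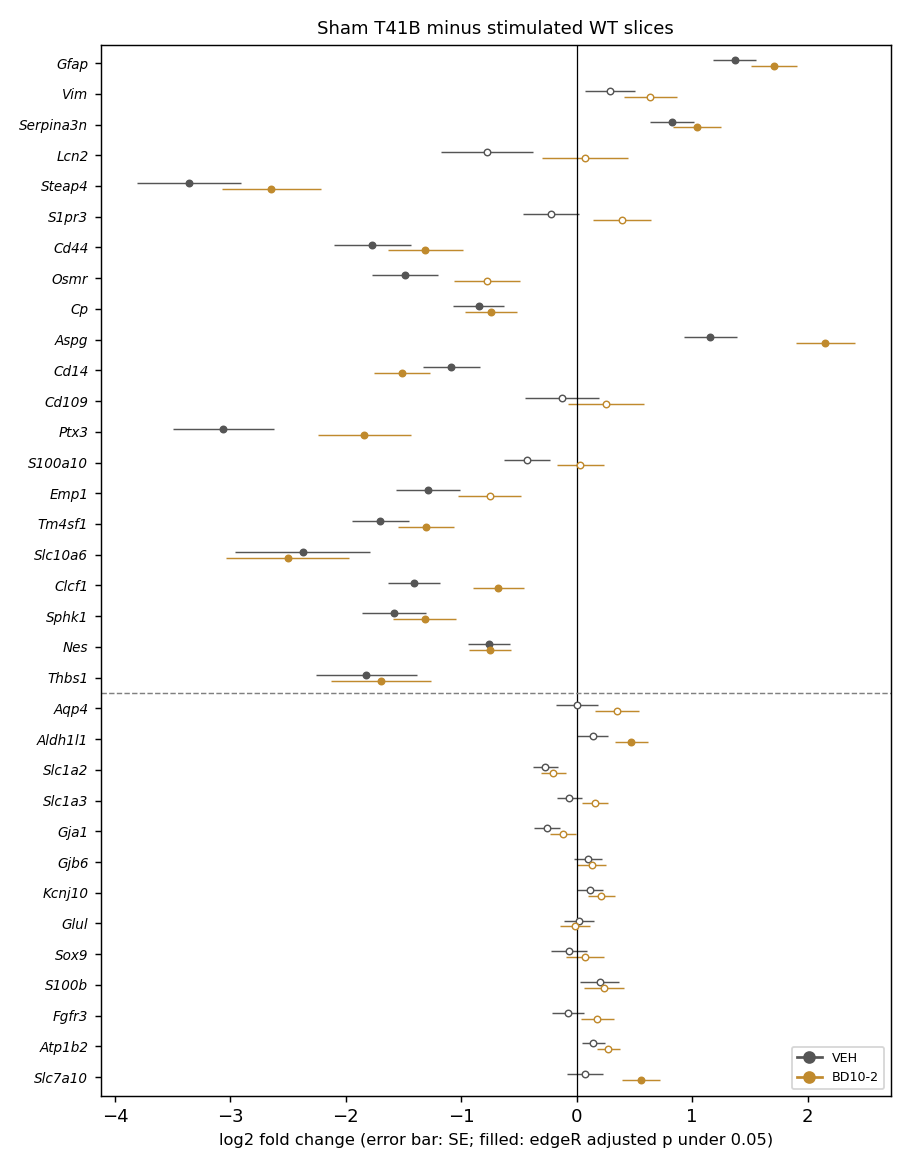
Log2 fold change (x axis) of the genes (y axis) in sham T41B minus stimulated WT slices, under vehicle and BD10-2, with bars for the standard error and filled points for an edgeR adjusted p under 0.05. Gfap, Serpina3n and Aspg lie to the right of 0 and Steap4 and Ptx3 far to the left.

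Per sample, the mean log2(CPM + 1) of the 21 reactivity genes was set against that of the 6 identity genes. The reactivity level was 2.92 ± 0.20 (SD, n = 4) in sham and 4.44 ± 0.17 (n = 4) in stimulated slices of vehicle-treated WT mice, and 3.70 ± 0.14 (n = 4) and 5.46 ± 0.25 (n = 4) in T41B mice. Under BD10-2 it was 2.96 ± 0.12 (n = 3) and 4.33 ± 0.14 (n = 3) in WT and 3.92 ± 0.18 (n = 5) and 5.81 ± 0.46 (n = 5) in T41B mice. The identity level ranged only from 8.06 ± 0.08 (n = 4, vehicle WT sham) to 8.69 ± 0.19 (n = 5, BD10-2 T41B stimulated). In the 14 mice with both slices the reactivity level was higher after stimulation in 14, by 1.17 to 2.31, and the identity level in 14, by 0.02 to 0.59. The reactivity level lay below the identity level in every group, and stimulation narrowed this gap by 1.23, 1.41, 1.23 and 1.62 in the 4 comparisons. The gap was narrower in T41B than in WT mice by 0.55, 0.72, 0.68 and 1.07. Within the 7 combinations of batch and stimulation which share mice, the gap was narrower in T41B mice in 7, by 0.24 to 1.15.

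**Figure D4:**
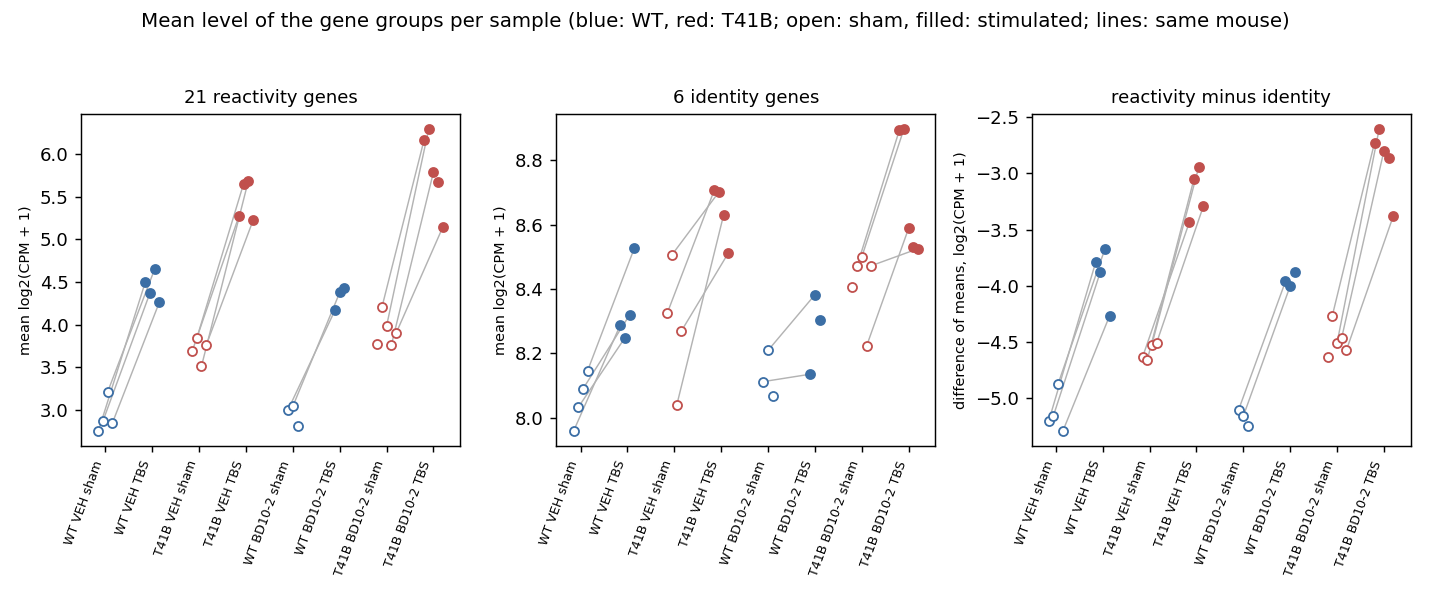
Mean log2(CPM + 1) of the 21 reactivity genes, of the 6 identity genes and their difference (y axes) in each sample by group (x axis), with lines joining slices of 1 mouse. Reactivity levels rise along every line, by 1.17 to 2.31, and identity levels by 0.02 to 0.59.

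BD10-2 was compared with vehicle within each genotype and stimulation. None of the 34 genes was called in any of the 4 comparisons, where 0% of all genes tested were called by edgeR. At an unadjusted p under 0.05, edgeR found 2, 1, 2 and 7 of the 34 in WT sham, WT stimulated, T41B sham and T41B stimulated slices, and DESeq2 called 0. Over all genes tested 1.92%, 5.61%, 2.21% and 3.9% passed this level, and 1 of 34 in WT stimulated slices (2.94%) was below that share. In stimulated T41B slices 21 of 21 reactivity genes had a positive log2 fold change, with a median of 0.37, against 53.2% of all genes tested, with a median of 0.01. The 2 mice of batch H, of the 5 in the BD10-2 group, were its 2 highest samples in 16 of the 21 reactivity genes. They were so in 8 of the 13 identity genes too. Without these mice 17 of the 21 reactivity genes were positive, with a median of 0.10, against 50% of all genes tested, with a median of 0. Then Gfap stood at 0.02 ± 0.16 SE, Cd14 at -0.16 ± 0.19 SE, Thbs1 at -0.40 ± 0.29 SE and Cd44 at -0.10 ± 0.28 SE (edgeR adjusted p = 1 for each). In the other 3 comparisons, with all mice and in the order above, 12, 5 and 18 of the 21 were positive. Of all genes tested 48.1%, 47.9% and 47% were positive there. The microglia markers were positive in stimulated T41B slices in 10 of 10 (median 0.49, 9 at an unadjusted p under 0.05, and 0.26 without batch H) and the A1 genes in 11 of 11, and their part in these values was not tested. There Gfap stood at 0.36 ± 0.17 SE and Cd109 at 0.80 ± 0.30 SE (edgeR adjusted p 1 and 1). Gfap was 1480.0, 1725, 1868 and 2139 CPM under vehicle and 1771, 1817, 1884, 2886 and 3252 CPM under BD10-2, where the 2 highest were the mice of batch H, and the groups overlapped. Each batch held 1 treatment, so treatment and batch cannot be told apart.

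Tests of the difference between effects gave no call either (0% of all genes tested by edgeR, and 0 of the 34 by DESeq2). The stimulation response of T41B against WT mice differed at an unadjusted p under 0.05 for 1 of the 34 genes under vehicle and for 4 under BD10-2, Cp, Cd14, Sphk1 and Thbs1. Over all genes tested 8.64% and 4.34% passed this level, so the share under vehicle, 2.94%, was below that of all genes. The largest of these was in Thbs1, at 2.32 ± 0.64 SE on the log2 scale (edgeR adjusted p = 0.444), and Cd14 was 1.13 ± 0.36 SE (edgeR adjusted p = 0.789). Without the mice of batch H these were 1.39 ± 0.49 SE and 0.75 ± 0.31 SE (edgeR adjusted p = 1 for both). Without the T41B mouse that includes the library of lowest Thy1, Thbs1 was called, at 2.46 (edgeR adjusted p = 0.0442). The response under BD10-2 against vehicle differed at that level for 1 gene in WT, Slc10a6, whose value rests on the sham group without counts, and for 0 in T41B mice (1.73% and 2.7% of all genes tested). A missing call in these tests does not show that the responses were alike.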

How the data were processed

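Expected counts per gene, which need not be whole, were deposited by the authors for 36 libraries made from 200 ng of total RNA with a stranded kit that removes ribosomal RNA. The submitters' processing notes name cutadapt 1.8.1, STAR 2.7.6a, RSEM 1.3.1, featureCounts 1.6 and SAMtools 1.11 and the builds GRCm38.p6 and mm10. The annotation release and the strand setting are not given in the sources used here. Values with decimals (5.69%) were rounded. Libraries with equal labels were added, giving 32 samples. Genes were filtered with filterByExpr (minimum count 10), scaled by TMM and tested in edgeR 4.0.16 (R 4.3.3; quasi-likelihood F test, 1 coefficient per group, all groups sharing an estimate of the spread), with Benjamini-Hochberg adjustment over 19478 genes and a threshold of 0.05. The standard error (SE) given for edgeR was derived as the absolute log2 fold change divided by the square root of the F statistic. limma 3.58.1 and DESeq2 1.42.0 gave alternatives. The fit was tested on simulated data, where it recovered a smaller share of changes in a difference between effects than in a single comparison. Levels averaged over genes used log2(CPM + 1). Mouse ids in the labels pair the slices of 14 mice. Slices of the same mouse deviated together, with a mean correlation of 0.205, over 0.1 in 12 of the 14. Slices of 1 mouse entered the tests without a block. The 34 genes and all lists were chosen with earlier results of these data known. All 34 are named. Values by sample or range were to be given for those called in at least 3 of 4 comparisons of a kind and for Gfap, Vim and the 6 identity genes. Of these, Vim, S100a10, Sox9, Atp1b2, Aldh1l1 and Kcnj10 are given mainly by log2 fold change instead. Other genes have values where a result turned on them. From each other list at most 4 called genes are named, those with the largest mean absolute log2 fold change. Promoters are RefSeq's, on GRCm38.p6, and exon lengths are those of GENCODE on the same build. Depth limits low genes most, and the bound given for Slc10a6 covers counting error only.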

Additional observations from a re-analysis of the deposited data

Results flagged for a closer look

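Dixon's criterion was applied to 186 combinations of a gene or an averaged level with a group of 4 or 5 samples. In 12, all of genes, a sample stood far apart from the rest of its group. Chance alone gives this in about 1 in 20. The stimulated slice of 1 vehicle-treated WT mouse was low in Lcn2 (0.492 CPM) and apart in Osmr (115 CPM), Cp (15.7 CPM) and Sox9 (142 CPM). The sham slice of that mouse stood apart in Sox9 (84.8 CPM) and Kcnj10 (214 CPM). Another sham WT sample under vehicle held 9.68 CPM of S1pr3. Among vehicle-treated T41B mice, a sham sample held 0.372 CPM of Lcn2 and another 258 CPM of Kcnj10, and stimulated samples held 28.6 CPM of Emp1 and 120 CPM of Sox9. The stimulated BD10-2-treated T41B mouse that includes the library of lowest Thy1 held 34.3 CPM of Cp.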

How the results depend on the processing

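Over the stimulation, genotype and sham T41B against stimulated WT comparisons, 0 of the 180 called fold changes of the 34 genes changed sign under an alternative, and 51 of the 160 that were not called did. With the batch id as a covariate the genotype comparisons under vehicle called 6 genes in sham and 8 in stimulated slices. Without the samples with choroid plexus markers, an alternative added after seeing the data that leaves fewer samples, they called 6 and 5, sham T41B against stimulated WT slices under vehicle called 9, and the narrowing of the gap between the identity and the reactivity level by stimulation in vehicle-treated T41B mice was 1.213. Without the 2 mice of batch H, also added after seeing the data, the genotype comparison of stimulated BD10-2 slices called 16. With a pseudocount of 5 CPM, which shrinks low genes, this narrowing was 0.794, 1.035, 0.821 and 1.259 for stimulation, and 0.332, 0.419 and 0.857 for genotype in vehicle sham, BD10-2 sham and BD10-2 stimulated slices. With 0.5 CPM it was 1.362 for stimulation in BD10-2-treated WT mice. Without Cd14, Lcn2, Ptx3, Cd44 and Osmr, which other cells also make, it was 0.900, 1.041, 0.875 and 1.301 for stimulation and 0.537 for genotype in BD10-2 sham slices. Tm4sf1, Emp1, Vim and Thbs1, which other cells make as well, were kept in that level. Leaving out each mouse in turn gave 6 to 14, 9 to 17, 10 to 16 and 16 to 27 genes called by genotype, 18 to 23, 18 to 23, 13 to 19 and 21 to 24 by stimulation, and 0 to 1 for the genotype by stimulation difference under BD10-2. With the mouse as a replicate block edgeR called 24, 24, 16 and 24 genes after stimulation. With the mouse as a random effect limma-voom called 25, 24, 20 and 25, and 9, 15, 12 and 28 by genotype. In BD10-2-treated WT mice 1 of the 16 and 1 of the 20 were called lower. In the limma-voom fit 11.3%, 16.1%, 9.28% and 16.2% of all genes were called higher after stimulation and 9.9%, 16.3%, 6.73% and 15.1% lower. By genotype 3.7%, 4.31%, 3.85% and 7.87% were called higher and 1.4%, 0.806%, 1.42% and 2.89% lower. The edgeR block cannot be used for genotype or treatment, which do not vary within a mouse. Without the T41B library of lowest Thy1 the log2 fold changes after stimulation under BD10-2 were 4.27 for Ptx3, 4.11 for Cd14, 4.74 for Thbs1 and 0.46 for Gfap, which was then called. Lcn2, Steap4 and Slc10a6, under 1 CPM in sham WT slices, are limited by depth. Unless the construction of an alternative shows it, the cause was not tested.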
